A study of Rattus norvegicus with 6 samples.

Results

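Interferon-stimulated genes were compared between soft tissue around a dental implant and healed oral mucosa of the rat. The programme was a list of 46 gene symbols, set out by role as antiviral effectors, RNA sensors and ISG15 or ubiquitin enzymes, guanylate-binding proteins and immunity-related GTPases, Ifitm genes, and STAT and IRF factors. Each gene was read from the brightest probe set, by mean over the 6 arrays, that carries its symbol alone. This gave 41 of the 46 genes, among 14217 genes named in the table. Oasl2, Xaf1, Rigi, Gbp5 and Ifi47 were not analysed here.

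The tissue came from male Sprague Dawley rats that were 4 weeks old when obtained. Each rat lost its upper first molar on the left and on the right. Peri-implant soft tissue was taken from the left side, where a titanium alloy implant had been placed in the socket. Oral mucosal tissue was taken from the right side, where the socket had healed with no implant. Both were collected 4 weeks after surgery, each group held 3 arrays, and tissue and side of the mouth cannot be told apart. The labels do not state that the arrays of a group were separate rats, so a p-value here reflects only how these samples vary, and that variation may be technical.

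Interferons are secreted signals of antiviral and antimicrobial defence. Type I interferons bind the receptor of Ifnar1 and Ifnar2 and act through a complex that holds STAT2 and IRF9 on the interferon-stimulated response element (ISRE), while interferon-γ acts on the gamma-activated sequence (GAS). The induced genes block viral entry, translation and release, sense foreign nucleic acid, and raise antigen presentation. In oral mucosa, leukocytes, keratinocytes and fibroblasts can all express them.

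Most of the programme had higher signals in peri-implant tissue, led by Ifitm1, which encodes a membrane protein that restricts viral entry and was 12.8-fold higher. The other large rises were in Ifit3, Ifit2, Isg15, Irf1 and Lgals3bp, at 3.66-fold to 5.95-fold. Bst2, tetherin, was the member that fell. Of the 41 measured genes, 22 were higher, 1 was lower, 10 did not pass (limma, Benjamini-Hochberg adjusted p under 0.05) and 8 lay below the filter on dim probe sets and were not tested. Over all genes tested, 15.2% were called higher and 11.0% lower. With no filter, when all 41 were tested, the counts were again 22 and 1, against 10.4% and 7.34% of all genes. Ifi44l then passed and Stat2 did not.

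**Figure D1:**
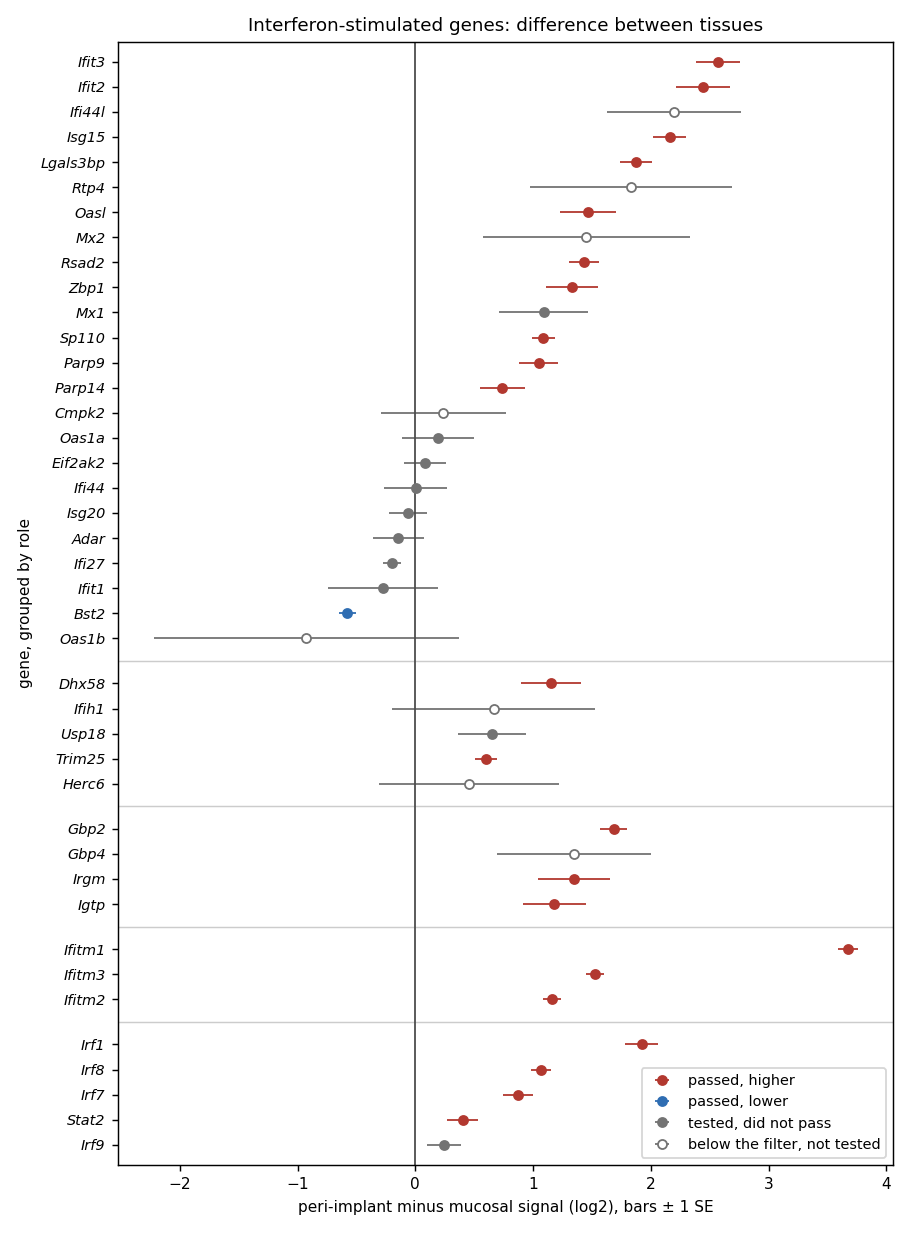
Difference between tissues for the 41 measured interferon-stimulated genes, as peri-implant minus mucosal signal on the log2 scale (x axis), with bars of 1 SE, ordered by size within each role (y axis). Open points mark the 8 genes below the filter, whose bars come from the fit without a filter. In every role except the antiviral effectors all points lie to the right of 0. Among these points the bars of Ifih1 and Herc6, dim on every array, cross 0. The antiviral effectors run from -0.93 (Oas1b, dim on every array) to 2.57 (Ifit3).

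The median difference of the 41 genes was 1.09 on the log2 scale, beside 0.02 over all 14217 genes. A difference of at least 2-fold upward was seen in 23 members (56.1%, against 9.43% of all genes) and one of at least 2-fold downward in 0 (7.68% of all genes). These values are as deposited. With dim values raised to the floor defined below, the median of the 41 genes was 0.74. Of the 23, Mx1, Mx2, Ifi44l, Rtp4 and Gbp4 then fell below 2-fold, at 0.68, 0.11, 0.75, 0.52 and 0.05 on the log2 scale. The others stayed above it. No value with the floor is given here for all genes. The arrays of the groups did not overlap for 27 members that were higher and 2 that were lower, Bst2 and Ifi27. Among all genes these shares were 19.8% and 15.3%. The mean log2 signal over the 41 genes was 8.53, 8.35 and 8.51 on the peri-implant arrays and 7.52, 7.48 and 7.40 on the mucosal arrays. Within the peri-implant group, arrays 1, 2 and 3 had the highest signal for 18, 10 and 13 of the genes.

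**Figure D2:**
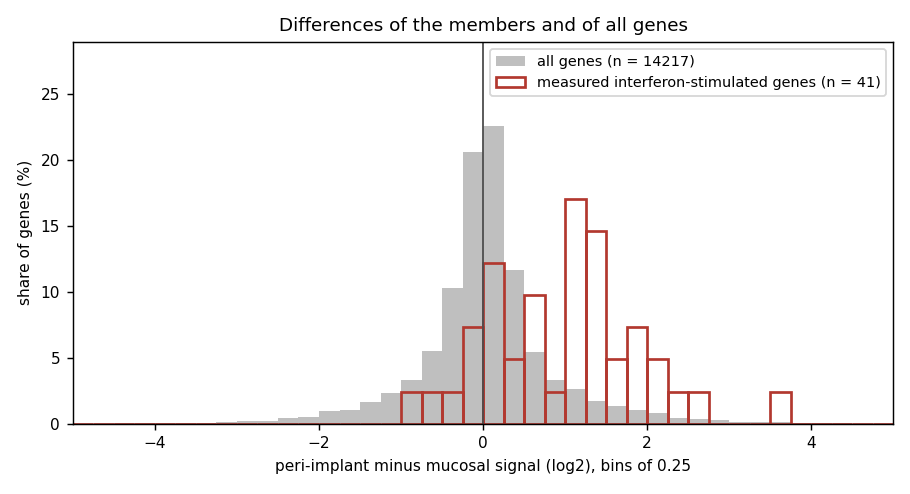
Share of genes (y axis, %) in bins of 0.25 of the peri-implant minus mucosal difference on the log2 scale (x axis), for all 14217 genes in grey and for the 41 measured interferon-stimulated genes in outline. All genes centre near 0, with a median of 0.02, while the members have a median of 1.09. The values are as deposited. With dim values raised to the floor, the median of the members is 0.74.

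Promoter sequences were set beside these values because the programme is defined by response to interferon. RefSeq windows on the rat GRCr8 build, from 250 bases before to 50 bases after a transcript start, were found for 35 of the 46 listed genes. The ISRE letters searched were GAAA, any 2 bases and GAAA, and the GAS letters TTCNNNGAA, on both strands, and matches may overlap each other. Of the 35 windows, 16 began at the outermost annotated start of the gene and 19 at the start of another transcript. ISRE letters were present in 24 of the 35 windows (68.6%), against 3.77% of 27457 windows of all genes. They were present in 12 of the 16 windows at the outermost start. GAS letters were present in 12 (34.3%), against 8.68% of all. ISRE letters were in 11 of 17 members that were higher, in the 1 that was lower, in 5 of 7 that did not pass and in 4 of 6 below the filter. With so few windows in each class, these counts were not compared. A match is a description of the sequence and not a site in use.

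The sequences below are the 150 bases before the start for 10 members of 4 of the 5 roles, with none of the sensors and enzymes, shown because they place members that rose beside Bst2, which fell, and Ifi27, which did not pass. Matches to either motif are in capitals, and each sequence runs 5′ to 3′ on the strand of its gene. They were taken from the 16 windows that begin at the outermost annotated start of the gene, and each sequence shown holds a match.
Ifit3, chr1:241527176-241527325, plus strand: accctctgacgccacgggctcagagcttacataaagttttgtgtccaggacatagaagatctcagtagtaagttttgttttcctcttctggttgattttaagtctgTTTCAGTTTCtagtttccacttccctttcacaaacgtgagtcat
Lgals3bp, chr10:104127849-104127998, minus strand: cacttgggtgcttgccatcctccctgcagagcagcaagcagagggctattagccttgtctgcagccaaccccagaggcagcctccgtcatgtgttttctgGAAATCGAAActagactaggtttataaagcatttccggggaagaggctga
Parp14, chr11:78407984-78408133, plus strand: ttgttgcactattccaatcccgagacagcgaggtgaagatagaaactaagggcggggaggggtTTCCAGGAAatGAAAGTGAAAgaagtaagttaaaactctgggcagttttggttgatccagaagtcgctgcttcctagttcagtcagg
Gbp2, chr2:234005577-234005726, plus strand: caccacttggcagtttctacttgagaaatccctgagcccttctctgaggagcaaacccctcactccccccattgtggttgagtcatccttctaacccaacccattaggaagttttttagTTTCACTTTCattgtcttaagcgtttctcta
Igtp, chr10:42874897-42875046, plus strand: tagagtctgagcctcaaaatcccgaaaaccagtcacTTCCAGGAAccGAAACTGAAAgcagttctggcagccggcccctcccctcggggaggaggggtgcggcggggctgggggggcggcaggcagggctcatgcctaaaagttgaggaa
Ifitm2, chr1:205482349-205482498, minus strand: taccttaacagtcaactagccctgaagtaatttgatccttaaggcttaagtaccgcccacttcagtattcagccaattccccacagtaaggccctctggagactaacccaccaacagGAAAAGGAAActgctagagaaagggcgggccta
Ifitm3, chr1:205541759-205541908, minus strand: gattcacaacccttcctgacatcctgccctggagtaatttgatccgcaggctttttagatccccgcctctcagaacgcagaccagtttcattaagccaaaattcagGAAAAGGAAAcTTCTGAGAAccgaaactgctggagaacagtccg
Irf1, chr10:38417785-38417934, plus strand: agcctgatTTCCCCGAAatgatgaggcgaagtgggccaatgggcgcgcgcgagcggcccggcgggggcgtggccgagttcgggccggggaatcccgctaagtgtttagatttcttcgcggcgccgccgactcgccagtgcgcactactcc
Bst2, chr16:18254968-18255117, minus strand: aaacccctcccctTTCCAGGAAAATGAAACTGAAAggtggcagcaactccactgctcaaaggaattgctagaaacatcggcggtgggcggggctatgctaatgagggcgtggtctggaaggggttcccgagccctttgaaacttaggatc
Ifi27, chr6:128355162-128355311, plus strand: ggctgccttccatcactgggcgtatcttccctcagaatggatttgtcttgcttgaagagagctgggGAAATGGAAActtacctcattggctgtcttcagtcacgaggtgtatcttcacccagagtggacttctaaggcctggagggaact

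In Ifit3 and Gbp2 the ISRE letters lie on the opposite strand, beginning 44 and 31 bases before the start. In Parp14 and Igtp GAS letters stand just before the ISRE letters, and in Ifitm3 just after them. Irf1 has GAS letters alone, 142 bases before the start. Bst2, the member with the lower signal, has 2 overlapping ISRE matches, and the one farther from the start also overlaps GAS letters. Of the 30 ISRE matches in member windows, 23 lay wholly within the 100 bases before the start.

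**Figure D3:**
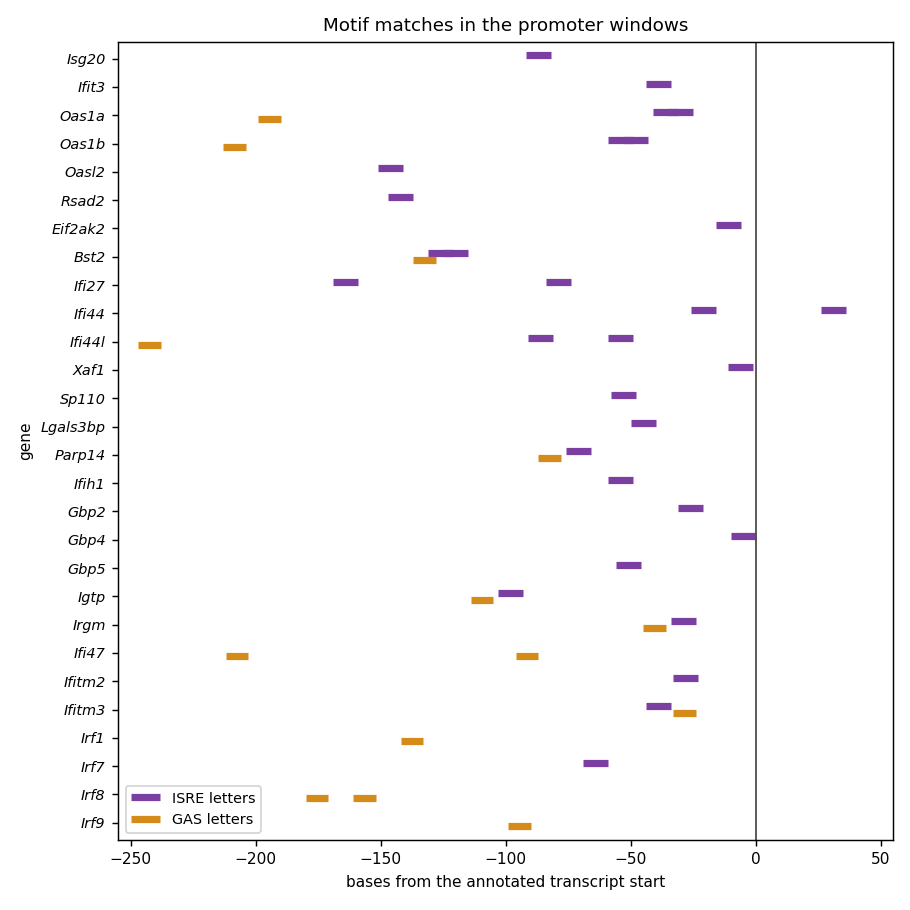
Positions of ISRE letters (purple) and GAS letters (orange) in the promoter windows of the listed members that hold a match (y axis), in bases from the annotated transcript start (x axis, start at 0). Most ISRE matches, 23 of 30, lie wholly within 100 bases upstream.

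The antiviral effectors were the role with the widest range. Of 24 measured, 10 were higher, 1 lower, 8 did not pass and 5 were below the filter, and the median difference was 1.07 on the log2 scale. With values raised to a floor of 5.90, below which signals are called dim here, the median was 0.60. Without mucosal array 3 it was 0.76.

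The IFIT proteins bind viral RNA and block its translation. Ifit3 had log2 signals of 9.36, 9.67 and 9.45 in peri-implant tissue and 6.64, 6.90 and 7.22 in mucosa. Its lowest peri-implant array lay well above its highest mucosal array, and it was higher by 2.57 (SE 0.18, adjusted p = 4.09e-07). Ifit2 stood at 8.52, 8.48 and 8.82 against 6.37, 5.87 and 6.25, a difference of 2.44 (SE 0.23, adjusted p = 5.64e-06), also with no overlap. Its second probe set was higher too, by 1.75 (adjusted p = 7.94e-04). Ifit1, the third member of the family measured, was dim in both tissues at 5.61 ± 0.75 against 5.88 ± 0.30 (SD, n = 3 each), and its groups overlapped (limma adjusted p = 0.727).

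Isg15 encodes a ubiquitin-like modifier that is attached to proteins during the response. Its log2 signals were 9.62, 9.48 and 9.58 in peri-implant tissue and 7.28, 7.43 and 7.49 in mucosa. The groups lay apart by 2.16 (SE 0.14, adjusted p = 1.62e-07). Lgals3bp, a secreted glycoprotein of the scavenger receptor family, stood at 9.74, 9.68 and 9.47 against 7.75, 7.88 and 7.65. This was a difference of 1.87 (SE 0.14, adjusted p = 4.79e-07) with no overlap. Rsad2, viperin, which makes a chain-terminating nucleotide, read 9.82, 9.99 and 9.76 against 8.20, 8.55 and 8.52. It was higher by 1.43 (SE 0.13, adjusted p = 3.33e-06). Cmpk2, the kinase encoded next to Rsad2, was dim in both tissues at 5.74 ± 0.39 and 5.50 ± 0.11 and was not tested. A second probe set of Cmpk2, also below the filter, stood at 6.15 against 3.07.

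The other rises among the effectors were smaller. Oasl, a relative of the oligoadenylate synthetases, was higher by 1.47 (SE 0.24). Zbp1, a sensor of left-handed nucleic acid that triggers cell death, was higher by 1.33 (SE 0.22). Sp110, a nuclear body protein, was higher by 1.09 (SE 0.10), and its arrays were tight, at 10.00, 10.02 and 10.04 against 8.98, 8.93 and 8.88. Its 2 further probe sets were at 6.66 against 6.47 and 6.78 against 6.51 and did not pass, and with the mean of the 3 probe sets the call was lost (difference 0.52, adjusted p = 0.0755). Parp9 and Parp14, of the ADP-ribosyltransferase family that shapes STAT signalling, were higher by 1.05 (SE 0.16) and 0.74 (SE 0.19). The call for Parp14 was lost without peri-implant array 2 (adjusted p = 0.0674 in limma). A second probe set of Parp14, dim and below the filter, pointed the other way, at 4.60 against 4.93.

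Bst2, tetherin, holds budding virus at the cell surface. Its log2 signals were 11.34, 11.42 and 11.37 in peri-implant tissue and 11.94, 11.88 and 12.03 in mucosa. Every peri-implant array was below every mucosal array, and the signal fell by 0.58 (SE 0.07, adjusted p = 6.15e-05). Ifi27, a small membrane protein of the response, showed the same order of groups at 12.49, 12.53 and 12.49 against 12.74, 12.58 and 12.79, but its difference of -0.20 did not pass (adjusted p = 0.0754). Without mucosal array 2 it passed, at -0.26 (adjusted p = 0.0282).

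Several classical effectors did not pass. Mx1, a dynamin-like GTPase that traps viral particles, read 6.875, 6.475 and 6.480 against 5.461, 5.996 and 5.104. Its groups did not overlap, and its difference was 1.09 (SE 0.38, adjusted p = 0.0572). It passed in 4 of 12 alternatives, with adjusted p from 0.0302 to 0.184. Isg20, an exonuclease, stood at 8.03 ± 0.05 against 8.10 ± 0.05 (SD, n = 3 each, limma adjusted p = 0.824). Eif2ak2, the kinase PKR that stops translation, stood at 8.26 ± 0.28 against 8.18 ± 0.08 (limma adjusted p = 0.790), and Adar, which edits double-stranded RNA, at 8.11 ± 0.11 against 8.25 ± 0.47 (limma adjusted p = 0.691). Oas1a, an oligoadenylate synthetase, stood at 6.56 ± 0.20 against 6.37 ± 0.19 and Ifi44 at 6.86 ± 0.18 against 6.86 ± 0.17. A p that misses the threshold does not show that these genes were alike in the 2 tissues.

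Below the filter were Mx2, Oas1b, Cmpk2, Ifi44l and Rtp4. Ifi44l, a relative of Ifi44, read 6.30, 6.81 and 6.83 in peri-implant tissue and 3.97, 5.09 and 4.30 in mucosa. Its mucosal arrays were all dim, and the difference was 2.19 as deposited and 0.75 with the floor, with an adjusted p = 0.0207 in the fit without a filter. Mx2 and Rtp4 differed by 1.45 and 1.83 as deposited and by 0.11 and 0.52 with the floor, and their groups overlapped. A second probe set of Mx2, also below the filter, pointed the other way, at 2.23 against 4.38. Oas1b was dim on every array.

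**Figure D4:**
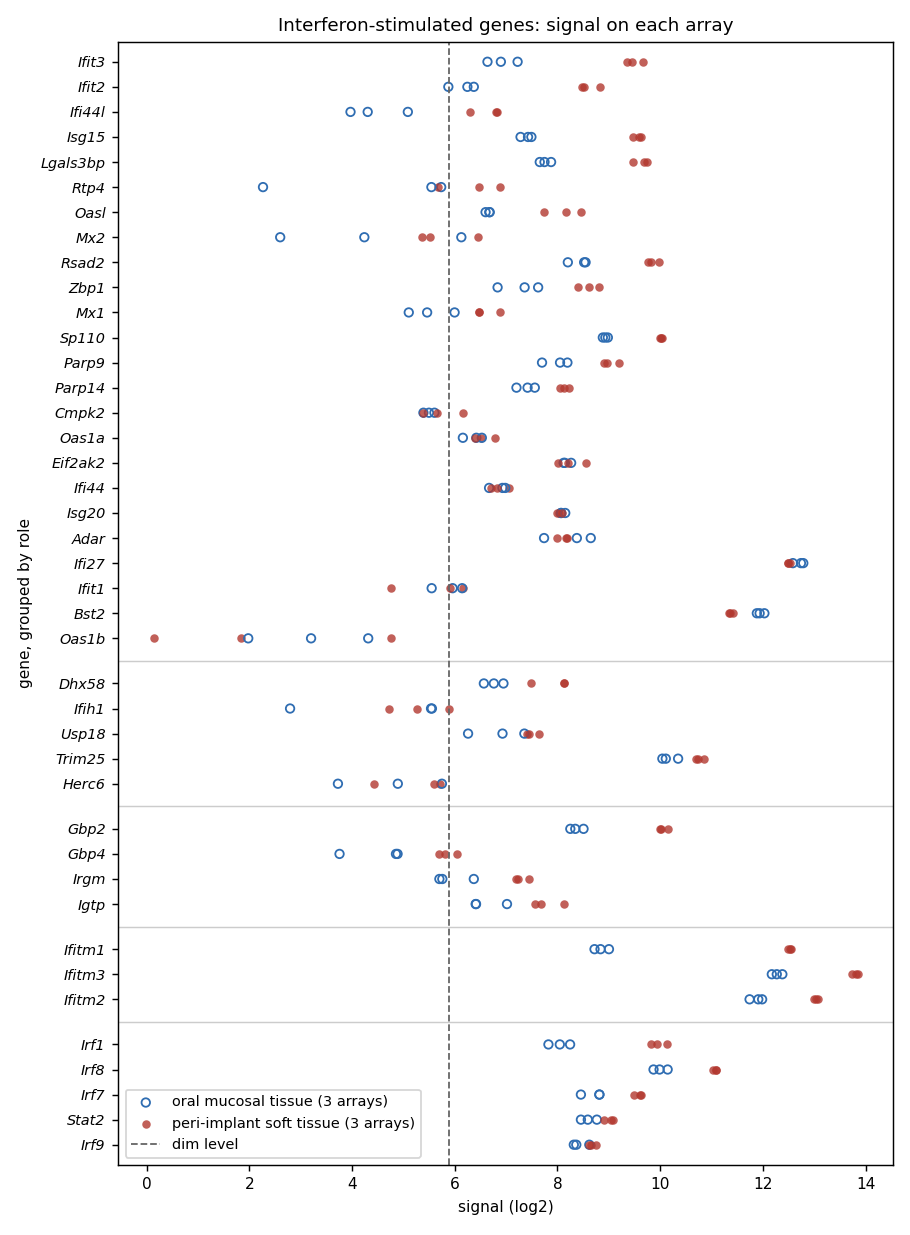
Signal on the log2 scale (x axis) on each of the 6 arrays for the 41 measured genes (y axis, grouped by role), with peri-implant arrays as filled and mucosal arrays as open points. The dashed line is the dim level of 5.90. Ifitm1 shows the widest separation, with peri-implant arrays near 12.53 and mucosal arrays near 8.85, while Bst2 has its mucosal arrays on the right.

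Among RNA sensors and ISG15 or ubiquitin enzymes, 2 of 5 measured genes were higher, 0 lower, 1 did not pass and 2 were below the filter. Trim25, a ubiquitin ligase that activates RNA sensing, read 10.86, 10.74 and 10.70 against 10.11, 10.04 and 10.35, higher by 0.60 (SE 0.10, adjusted p = 4.91e-04). Dhx58, which encodes the helicase LGP2, read 8.13, 8.12 and 7.48 against 6.76, 6.95 and 6.57, higher by 1.15 (SE 0.25, adjusted p = 0.00480). Both genes had separate groups. The other probe sets of Dhx58 differed by 0.35 and 0.12 and did not pass, and with the mean of all 3 the call was lost (adjusted p = 0.156). Usp18, which removes ISG15 and damps the type I receptor, had separate groups but a wide mucosal spread, at 7.50 ± 0.12 against 6.85 ± 0.55 (SD, n = 3 each, limma adjusted p = 0.134). It passed when mucosal array 2 was left out, at 0.91 (adjusted p = 0.0435). Ifih1, the sensor MDA5, and Herc6, a ligase for ISG15, were dim in both tissues. The median difference of this role was 0.65.

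Guanylate-binding proteins and immunity-related GTPases coat vacuoles that hold intracellular microbes and are typical targets of interferon-γ. All 3 that were tested, of 4 measured, were higher, and the median difference of the 4 was 1.35. Gbp2 read 9.99, 10.02 and 10.15 in peri-implant tissue and 8.35, 8.25 and 8.51 in mucosa, higher by 1.68 (SE 0.11, adjusted p = 2.45e-07). Irgm read 7.20, 7.22 and 7.44 against 5.76, 5.70 and 6.37, higher by 1.35 (SE 0.31, adjusted p = 0.00639). Igtp read 7.57, 7.68 and 8.13 against 6.41, 7.02 and 6.41, higher by 1.18 (SE 0.27, adjusted p = 0.00615). None of these groups overlapped, and the mucosal values of Irgm lay close to the dim level. A second probe set of Igtp, dim and below the filter, stood at 3.50 against 2.86. Gbp4 was dim in both tissues, at 5.85 ± 0.19 against 4.50 ± 0.64 (SD, n = 3 each). Its difference of 1.35 shrank to 0.05 with the floor.

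The Ifitm genes, which encode small membrane proteins that stiffen endosomal membranes against viral fusion, were all 3 higher. Ifitm1 read 12.536, 12.557 and 12.492 in peri-implant tissue and 8.838, 9.002 and 8.721 in mucosa. Its difference of 3.67 (SE 0.09, adjusted p = 1.41e-11) was the largest of the programme. Ifitm3 read 13.81, 13.74 and 13.86 against 12.38, 12.17 and 12.27, a difference of 1.53 (SE 0.08, adjusted p = 1.61e-08). Ifitm2 read 12.99, 13.08 and 13.04 against 11.91, 11.74 and 11.99, a difference of 1.16 (SE 0.08, adjusted p = 2.38e-07). The spread within a group was small beside each difference, at an SD of 0.03 to 0.06 in peri-implant tissue. These genes are close copies of each other, and how far each probe set separates them was not tested.

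Of the STAT and IRF factors, which carry the signal to DNA, 4 of 5 were higher and 0 lower, with a median difference of 0.87. Irf1, a factor induced by interferon-γ and by inflammatory cytokines, read 10.14, 9.93 and 9.81 against 7.82, 8.25 and 8.04. It was higher by 1.92 (SE 0.14, adjusted p = 4.88e-07), with no overlap. Irf8, a lineage factor of monocytes and dendritic cells, read 11.03, 11.09 and 11.08 against 10.15, 9.87 and 9.99, higher by 1.07 (SE 0.09, adjusted p = 1.40e-06). Irf7, the factor that amplifies type I interferon production, read 9.48, 9.60 and 9.63 against 8.82, 8.82 and 8.46, higher by 0.87 (SE 0.13, adjusted p = 2.41e-04).

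The partners of the type I complex had smaller differences. Stat2 read 9.04, 8.90 and 9.08 against 8.59, 8.77 and 8.46, higher by 0.40 (SE 0.13, adjusted p = 0.0445), and this call was lost in 10 of 13 alternatives, with adjusted p from 0.00530 to 0.134. They include leaving out any one array except mucosal array 2. The second probe set of Stat2 was higher by 0.83 (adjusted p = 0.0105). Irf9 read 8.76, 8.66 and 8.62 against 8.37, 8.62 and 8.32, with the nearest arrays of the groups almost touching, and did not pass (adjusted p = 0.260). The second probe set of Irf9 differed by 0.66 (adjusted p = 0.0555).

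Other genes of the interferon pathway, listed by their step and not by how they moved, were measured for 60 of 75 symbols. Of these 27 were higher, 0 lower, 22 did not pass and 11 were below the filter. With no filter 28 were higher and 1 lower. These counts and those of the lists below stand beside 15.2% called higher and 11.0% lower among all genes tested. With no filter the shares of all genes were 10.4% and 7.34%. The list was drawn up with earlier results of these data known.

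The 3 measured ligands were all below the filter. Ifnk, a type I interferon of keratinocytes, read 4.25, 1.44 and 1.49 in peri-implant tissue and 6.41, 6.49 and 6.32 in mucosa. It was the pathway gene called lower with no filter (adjusted p = 0.0114), and its difference of -4.02 became -0.51 with the floor, since the peri-implant arrays were all dim. Ifnb1 and Ifng were dim on all 6 arrays, so no difference in their transcripts could be measured. Among receptors and kinases 3 of 9 were higher. Ifngr1 and Ifngr2, the chains of the interferon-γ receptor, were higher by 0.96 (SE 0.07) and 0.47 (SE 0.11), and Ifnar2 by 0.56 (SE 0.14). Ifnar1, the other type I chain, stood at 6.70 ± 0.48 against 6.69 ± 0.36 (SD, n = 3 each). The λ receptor chain Ifnlr1 differed by 0.51 (adjusted p = 0.0644), and Il10rb, Jak1, Jak2 and Tyk2 differed by 0.06, 0.04, 0.21 and 0.31 and did not pass.

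Of the other signalling factors and inhibitors 4 of 9 were higher. Nmi, which binds STAT proteins, was higher by 0.69, Irf2 by 0.59, Irf3, the factor activated by nucleic acid sensing, by 0.38, and the phosphatase Ptpn2 by 0.34. The inhibitor Socs3 differed by 1.69 as deposited and by 0.66 with the floor (adjusted p = 0.0858), and Socs1 was dim in both tissues. Ptpn6, Pias1 and Irf5 differed by 0.37, 0.19 and -0.14 and did not pass. Of 6 measured genes of nucleic acid sensing, 4 were tested and 2 were below the filter. Only the adaptor Myd88 passed, higher by 0.58 (SE 0.09). With no filter Sting1, which relays cytosolic DNA sensing, passed too. It stood at 6.96 ± 0.23 against 3.57 ± 2.28, or 0.96 apart with the floor.

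Interferon-γ targets of antigen presentation and chemokines were higher in 10 of 15, with a median difference of 1.03. Psmb9 and Psmb8, immunoproteasome subunits, were higher by 2.28 (SE 0.13) and 2.24 (SE 0.26), the class I light chain B2m by 0.86 (SE 0.10) and the proteasome activator Psme2 by 0.52 (SE 0.08). The CXCR3 ligands were chosen for mention after their values were seen. Cxcl11 was higher by 2.26, Cxcl10 differed by 2.02 (limma adjusted p = 0.0933) and Cxcl9, below the filter, by 2.88. With the floor they differed by 1.03, 0.81 and 0.35, the mean mucosal signal of all 3 being dim. The mucosal arrays of Cxcl10 read 5.90, 2.27 and 6.07, so its mean there was dim through array 2. Further interferon-stimulated genes were higher in 9 of 18. Samhd1, which depletes nucleotides needed by viruses, stood at 10.78 ± 0.07 against 7.48 ± 0.11 (SD, n = 3 each), higher by 3.30 (SE 0.11, limma adjusted p = 3.47e-10). The ISG15-conjugating enzyme Ube2l6 was higher by 2.14, the lysosomal thiol reductase Ifi30 by 1.18 and the GTPase Irgm2 by 1.24.

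**Figure D5:**
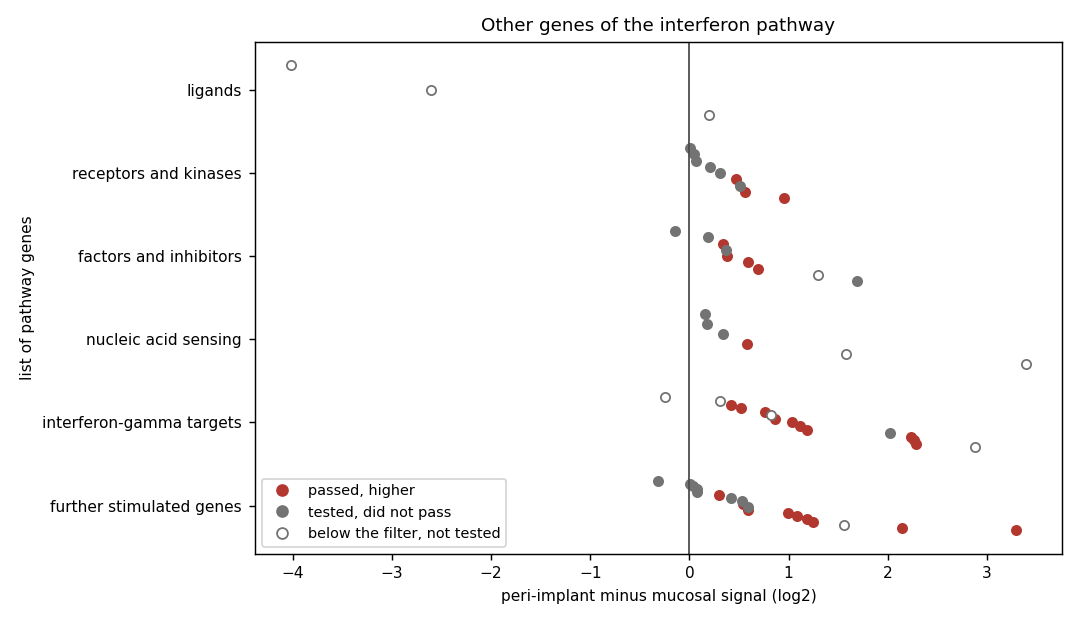
Peri-implant minus mucosal difference on the log2 scale (x axis) for 60 other measured genes of the interferon pathway, in 6 lists by step (y axis). Points are spread vertically within a list for legibility. No tested gene passed in the lower direction, and the open points of Ifnk and Ifnb1 at the left are below the filter.

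Some leukocyte markers were higher in peri-implant tissue, and their counts stand beside 15.2% called higher among all genes tested. Of 10 macrophage and monocyte markers, all measured, 7 were higher, with 1 not past the threshold and 2 below the filter. Their summed linear signal was 22873 to 24721 in peri-implant arrays and 9563 to 10088 in mucosal arrays. That sum rests mostly on the brightest marker, Lyz2, at a log2 signal of 13.9 against 12.5. The mean log2 signal of the list was 9.05 to 9.13 against 7.60 to 7.91. Aif1 and Mpeg1, macrophage genes, were higher by 2.45 (SE 0.17) and 1.69 (SE 0.10), and Cd163 was dim on all 6 arrays. T and natural killer cell markers passed in 3 of 10, with 7 below the filter, and summed to 1177 to 1294 against 294 to 341. Cd3g stood at 8.54 ± 0.09 against 6.24 ± 0.16, while Gzmb was dim in both tissues. Neutrophil markers were higher in 3 of 5, while Cxcr2 differed by -0.10 and did not pass and Camp was dim in both tissues. Of 4 B and plasma cell markers, Jchain was higher, Mzb1 did not pass and 2 were below the filter. Jchain, the T cell marker Cd3e and the macrophage marker Adgre1 were dim on every mucosal array. Their differences of 3.44, 3.53 and 1.68 became 1.71, 1.55 and 1.38 with the floor. Of the plasmacytoid dendritic cell list 1 of 3 was higher, Tcf4, and Siglech was not analysed here.

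Fibroblast markers ran the other way, with 6 of 7 lower, 1 higher and a summed signal of 39251 to 41036 against 63345 to 69516. This count and those below stand beside 15.2% called higher and 11.0% lower among all genes tested. Stratified epithelium markers check the labelled tissue, and 8 of 9 measured were above the dim level in both tissues, while Ivl was dim in mucosa (6.12 against 5.14) and below the filter. Of the 8 tested, 3 were higher, 1 was lower and 4 did not pass. The keratins Krt4, typical of lining mucosa, and Krt1, typical of keratinising layers, were higher by 3.12 (SE 0.08) and 1.14 (SE 0.09), while Krt5, of the basal layer, fell from 15.69 to 15.18. The summed signal of the list overlapped between the groups, at 314666 to 433661 against 304732 to 432886. Endothelial markers were higher in 1 of 5 and erythrocyte markers in 3 of 4. In bulk tissue, fewer cells of a type and less RNA per cell cannot be told apart, and the part of cell composition in the differences of the programme was not tested.

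The arrays were alike in scale, with a median log2 signal of 6.62 to 6.78 and 58.3% to 62.4% of probe sets above the dim level. The actin control probe sets differed between groups: the 3′ minus 5′ signal, which grows as RNA or its amplified copies shorten, was 3.94 to 4.01 in peri-implant tissue and 2.95 to 3.48 in mucosa. The same measure for Gapdh overlapped, at 0.15 to 0.24 and 0.14 to 0.21. The part of the actin difference in those of the members was not tested. The members had 54 probe sets in all. Of the 13 not used above, 9 were tested and 2 passed, those of Ifit2 and Stat2, both in the same direction as the probe set used.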

How the data were processed

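Total RNA of 6 tissue samples was amplified and biotin-labelled with a GeneChip 3′ kit (per the labels' protocols) and measured on 1 array each. The deposited values are log2 signals that the authors scaled per array, judged from the values: the mean of the linear signals, with 2% trimmed at each end, was 500.2 on every array. Which software and background method made them is not given in the sources used here. No further normalisation or pseudocount was applied to the 31099 probe sets (57 array controls).

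Probe sets with a mean above the 40th percentile, 5.68, were tested (18625) with limma 3.58.1 in R 4.3.3 (lmFit, eBayes with a variance trend, two-sided, Benjamini-Hochberg over all tested, threshold 0.05). SE is that of the fit, and differences are peri-implant minus mucosa. A dim level of 5.90 is the 40th percentile of all single values. The array annotation gave 1 symbol for 20832 probe sets, 20764 of which matched GRCr8 by gene number under the same symbol. The array's build is not given, and promoters are RefSeq's. The 3 arrays a group limit the precision.

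The members and lists were chosen with earlier results of these data known. Every measured member was named. From the pathway lists all ligands, receptors, kinases, factors and inhibitors were named, and up to 4 of the smallest p in the others. The fit was checked on simulated data. Alternatives covered the filter, quantile normalisation, the variance trend, the floor, the mean of probe sets, a replicate block and leaving out each array. A pseudocount, planned for linear values, was not run.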

Additional observations from a re-analysis of the deposited data

How the results depend on the processing

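Over the 41 members, 400 single-gene alternatives kept direction and side of the threshold, 13 lost a call, 7 gained one and 7 changed sign, all 7 of genes that did not pass. The count of members called higher was 20 to 24 and of members called lower 1 to 2 when 1 array was left out (2 without mucosal array 2, where Ifi27 joined Bst2), and 24 to 26 pathway genes passed, against 27 with all arrays. With the filter at the 60th percentile 17 members were higher, against 22, and with no variance trend 20 pathway genes passed. When 1 array was left out, the median difference was 0.76 to 1.08 for antiviral effectors and 0.55 to 0.91 for sensors and enzymes. For guanylate-binding proteins and GTPases it was 1.30 to 1.55 in those fits. It was 1.48 to 1.58 for Ifitm genes and 0.75 to 0.93 for STAT and IRF factors. For antiviral effectors it was 1.02 under quantile normalisation, 0.60 with values raised to the floor and 0.74 with the mean of probe sets, which covers tested genes only. For guanylate-binding proteins and GTPases it was 1.68 with the filter at the 60th percentile, where 1 gene was left. The signs that changed were those of Ifi44 (-0.041 under quantile normalisation) and Adar (0.059 with the mean of probe sets), and, with 1 array left out, of Ifi44 (-0.095 to 0.083), Adar (-0.40 to 0.053), Eif2ak2 (-0.071 to 0.21) and Ifit1 (-0.55 to 0.15). The cause was not tested. The values showed no pairing of samples of equal number: their deviations correlated at 0.01, -0.08 and 0.03. Of 3 peri-implant arrays, 1 correlated best with its own number. With 3 arrays a group, this check cannot show whether samples of equal number came from the same rat. With the replicate block 21 members were higher and 1 lower, Stat2 being the call lost (adjusted p = 0.0687). Dim genes limit the lists: 7 members were dim in both tissues and 3 in mucosa alone, and there a difference as deposited may exceed what the array resolves.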
